A study of Mus musculus with 48 samples.

Results

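Krt7, Krt8, Krt18, Krt19, Epcam, Cdh1, Lmo7, Clu and Upk3b are genes of epithelial cells that were followed here through cultures of mouse macrophages. They are 9 of the 19505 genes measured and were chosen by their rise in Kupffer cell cultures of 3 days. Each is read by 1 probe set. Because the measured values of 3 day Kupffer arrays selected them, every comparison that holds such an array is given as a description without a test. The rule does not record which other group the rise was read against.

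RNA was measured in 2 kinds of macrophage culture from Balbc male mice. Kupffer cells, which are macrophages that reside in liver sinusoids, had been sorted by the macrophage surface marker that Adgre1 encodes, and cells called monocytic had been sorted by CD115 from blood of the same animals. All were plated for 1 day in MCSF, a growth factor for macrophages, and then held for 1 or 3 days more with hepatocyte growth factor (HGF), with Ito cells (hepatic stellate cells), with CD146 cells (sinusoidal endothelial cells) or as controls in MCSF, which makes 2 or 4 days of culture in all. Each of the 16 groups had 3 arrays, 48 in total, whose titles call the replicates biological. The 8 Kupffer groups are HGF, Ito, CD146 and MCSF of 3 days and of 1 day, and the 8 monocytic groups carry the same names. The labels leave unsaid whether the added cells were separated from the macrophages when RNA was taken, and whether the additions came on top of MCSF.

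Keratins are the intermediate filament proteins of epithelia, and each filament joins a type II chain such as the product of Krt7 or Krt8 with a type I chain such as that of Krt18 or Krt19. In liver, hepatocytes make Krt8 and Krt18, while bile duct cells (cholangiocytes) and the mesothelial cells of the liver surface also make Krt7 and Krt19. Cdh1 (E-cadherin) and Epcam hold epithelial cells together, and macrophages are not known for a keratin skeleton.

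Levels are log2 signals, and means carry an SD over 3 arrays. The mean of 5222 negative control probe sets, which match no mouse transcript, served as background and lay between 5.07 and 6.15 on the 48 arrays. A gene is called at background in a group where it lay at or under that mean on every array, and a fold against such a group is a lower bound computed against the negative control mean. The number of arrays limits the precision. Arrays of 1 group correlated by 0.938 to 0.996, and no pair of arrays was identical. Earlier work on these data set apart 3 arrays from the others of their groups. They are replicate 1 of Kupffer cells in MCSF for 1 day, replicate 2 of Kupffer cells with HGF for 1 day and replicate 3 of monocytic cells in MCSF for 3 days, and values without them are given where a count changed.

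The 4 keratins were far above background in Kupffer cells kept for 3 days with any addition, and at background in Kupffer cells kept as long in MCSF. Krt7 had 14.72, 13.84 and 14.80 with HGF, against 4.12, 4.07 and 3.54 with MCSF, so that its level with HGF was at least 418-fold that of the control. It averaged 10.37 ± 0.90 with Ito cells, with a lowest array of 9.33, and had 13.86, 13.35 and 13.10 with CD146 cells, at least 24.5-fold and 206-fold the control. No array with an addition came near an MCSF array, and the Ito arrays were the lowest of those with an addition.

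Krt8, the type II partner of Krt18, had 13.54, 12.26 and 11.54 with HGF, 9.12, 8.96 and 8.44 with Ito cells and 10.71, 9.27 and 9.16 with CD146 cells, against 4.22, 3.87 and 3.96 with MCSF. Krt18 had 12.87, 11.42 and 11.56 with HGF, 7.95, 8.80 and 8.40 with Ito cells and 9.30, 9.09 and 9.02 with CD146 cells, against 4.12, 3.63 and 3.34 with MCSF. Both partners thus had their highest arrays with HGF, at least 104-fold and 73.6-fold the control. Krt19, the type I keratin of bile ducts and mesothelium, had 10.94, 9.57 and 10.24 with HGF, 8.40, 7.95 and 6.81 with Ito cells and 9.17, 8.87 and 8.14 with CD146 cells, against 3.41, 2.94 and 3.24 with MCSF. Its HGF arrays lay above all arrays with Ito or CD146 cells, and those with Ito and CD146 cells overlapped each other.

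Promoters are shown for the 3 keratins and the adhesion gene whose window holds CAGGTG, the E-box form that the SNAI and ZEB repressors of epithelial genes are known to bind. The RefSeq promoter table of build GRCm38.p6 matched 6 of the 9 genes, with 7 windows, since Lmo7 has 2 start sites. Cdh1, Krt19 and Clu were not matched. Each sequence is the 250 bases before the start site, read 5′ to 3′ on the gene's strand, and capitals mark CAGGTG or its reverse complement CACCTG.
Krt7, chr15:101412153-101412402, plus strand: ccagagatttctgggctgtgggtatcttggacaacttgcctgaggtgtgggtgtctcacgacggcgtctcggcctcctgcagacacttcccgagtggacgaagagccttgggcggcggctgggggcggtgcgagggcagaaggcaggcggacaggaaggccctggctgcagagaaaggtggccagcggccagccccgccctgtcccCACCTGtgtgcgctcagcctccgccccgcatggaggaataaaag
Krt8, chr15:102004343-102004592, minus strand: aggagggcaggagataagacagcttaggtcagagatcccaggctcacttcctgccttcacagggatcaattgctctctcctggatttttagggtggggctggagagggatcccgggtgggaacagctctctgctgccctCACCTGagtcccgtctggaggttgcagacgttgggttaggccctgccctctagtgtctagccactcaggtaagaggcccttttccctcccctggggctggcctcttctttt
Krt18, chr15:102027966-102028215, plus strand: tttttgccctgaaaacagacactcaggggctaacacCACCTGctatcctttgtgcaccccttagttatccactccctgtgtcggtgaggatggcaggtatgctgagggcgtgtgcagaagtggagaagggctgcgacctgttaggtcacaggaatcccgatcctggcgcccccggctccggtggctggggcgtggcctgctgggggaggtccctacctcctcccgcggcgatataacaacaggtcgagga
Epcam, chr17:87635729-87635978, plus strand: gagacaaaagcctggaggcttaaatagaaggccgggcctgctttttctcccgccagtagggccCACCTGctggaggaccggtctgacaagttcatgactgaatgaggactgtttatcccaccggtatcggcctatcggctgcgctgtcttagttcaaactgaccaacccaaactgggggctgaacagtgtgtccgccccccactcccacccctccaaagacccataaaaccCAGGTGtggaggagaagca
Epcam holds 2 such matches, whose first bases lie 187 and 19 bases before the start, and Krt7, Krt8 and Krt18 hold 1 each, 44, 111 and 214 bases before it. The motif is in 4 of the 7 windows of these genes and in 17.2 percent of all 32851 windows of this length. A GC box (GGGCGG or CCGCCC) is in 3 of the 7 windows and 32.7 percent of all, while the AP-1 motif (TGANTCA, which reads alike on both strands) and the TATA box (TATAAA or TTTATA) are in 0 of the 7, against 6.7 and 12.4 percent of all. No match of 1 motif overlapped a match of another in the 7 windows. Krt8 and Krt18 are neighbours on chromosome 15 with 0 protein-coding genes between them, and Krt7 lies on that chromosome too, with 23 between it and Krt8. These matches describe letters and show no binding.

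Cdh1 and Lmo7 had the same order of means as the keratins, with HGF highest and Ito cells lowest of the additions. Cdh1, the cadherin of adherens junctions, had 13.15, 11.45 and 12.09 with HGF, 9.23, 9.16 and 8.49 with Ito cells and 11.02, 10.92 and 9.97 with CD146 cells, against 4.80, 3.99 and 3.39 with MCSF. Lmo7, a LIM domain protein found at adherens junctions, had 14.57, 12.08 and 13.66 with HGF, 10.56, 10.37 and 10.02 with Ito cells and 11.78, 12.14 and 11.34 with CD146 cells, against 3.75, 3.67 and 3.50 with MCSF. With HGF these levels were at least 89.4-fold the control for Cdh1 and 206-fold for Lmo7, and the Lmo7 arrays with HGF and CD146 cells overlapped.

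Epcam, a surface adhesion protein of simple epithelia, had 7.94, 7.28 and 7.18 with HGF, 5.67, 5.34 and 5.46 with Ito cells and 5.55, 6.14 and 5.48 with CD146 cells, against 3.40, 3.57 and 3.34 with MCSF. Only the HGF group had all 3 of these arrays above its negative controls; the CD146 group had 2 and the Ito group 0, so Epcam was at background with Ito cells. Its level with HGF was at least 3.29-fold the control.

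Clu encodes clusterin, a secreted chaperone made by many cell types, and was the only gene of the 9 above background in every 3 day group. It had 18.09, 17.68 and 17.87 with HGF, 15.86, 15.71 and 15.49 with Ito cells and 17.39, 16.81 and 16.55 with CD146 cells, against 8.19, 8.44 and 9.13 with MCSF. The difference of means from the control was 9.29 log2 units with HGF, 7.10 with Ito cells and 8.33 with CD146 cells.

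Upk3b, a uroplakin known as a marker of mesothelium, was ordered differently. It had 9.03, 8.32 and 8.84 with CD146 cells, 6.96, 5.29 and 6.26 with HGF and 5.54, 4.62 and 5.17 with Ito cells, against 3.64, 3.47 and 3.36 with MCSF. The CD146 arrays did not overlap any other group, whereas the other 8 genes had their highest mean with HGF. Upk3b was at background with Ito cells, and with CD146 cells it was at least 7.91-fold the control.

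**Figure D1:**
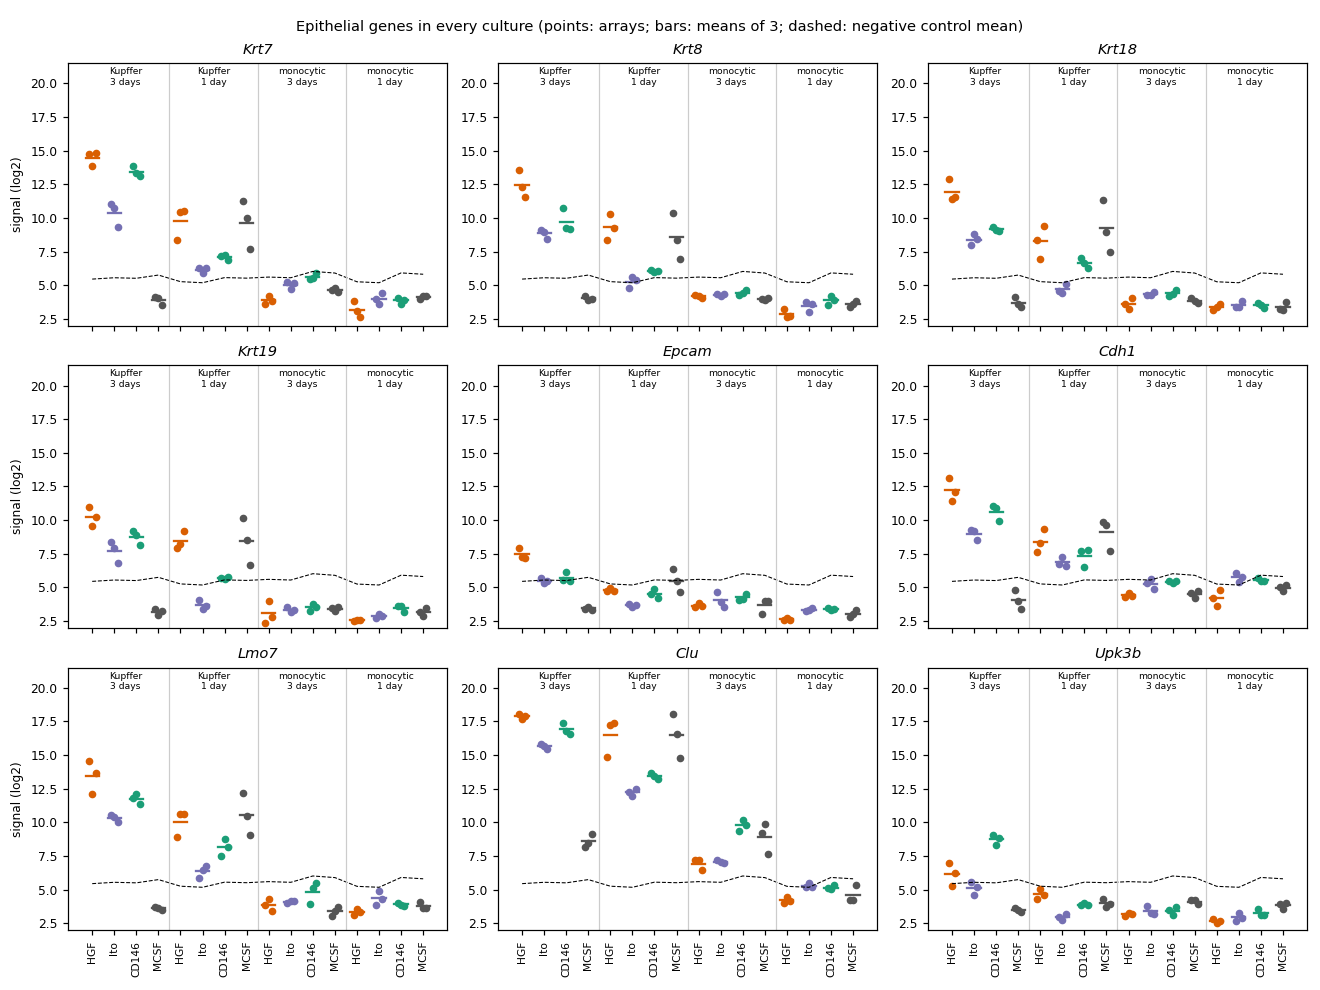
Log2 signal of the 9 genes on every array, by culture; points are arrays, bars are means of 3 arrays, and the dashed line is the mean of the negative controls in that group. In 3 day Kupffer cultures Krt7 sits between 9.33 and 14.80 with an addition and between 3.54 and 4.12 with MCSF, and the monocytic groups lie at background for all genes except Clu after 3 days and Cdh1 and Clu on some arrays with Ito cells.

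Over the 9 genes, the median log2 difference from MCSF at 3 days was 8.25 with HGF (from 2.68 to 10.55), 4.83 with Ito cells (from 1.62 to 7.10) and 5.70 with CD146 cells (from 2.29 to 9.53). The arrays did not overlap for 9 of 9 genes in each case. Epcam and Upk3b were at background in both groups of the Ito comparison. Over all genes, 17.8 percent were higher without overlap with HGF, 24.0 percent with Ito cells and 21.9 percent with CD146 cells, and since these contrasts may have chosen the genes nothing is read from the counts. The 3 comparisons share the MCSF control arrays.

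Against monocytic cells given the same addition for 3 days, the median log2 difference of the 9 genes was 8.27 with HGF (from 3.00 to 10.93), 4.37 with Ito cells (from 1.46 to 8.59) and 5.29 with CD146 cells (from 1.47 to 7.82). Again 9 of 9 genes were higher without overlap, a state shared by 14.6, 15.3 and 20.2 percent of all genes with HGF, Ito cells and CD146 cells. Epcam and Upk3b were at background in both cell types with Ito cells. With MCSF alone the same comparison gave a median of -0.24 (from -0.72 to 0.25), and 8 of the 9 genes were at background in both cell types. Clu, the exception, had 8.19, 8.44 and 9.13 in Kupffer cells and 9.22, 9.85 and 7.66 in monocytic cells, which overlap. In bulk RNA, fewer cells of a type and less RNA per cell cannot be told apart.

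Between the 2 times the Kupffer groups differed with opposite signs. With MCSF the 9 genes had lower levels at 3 days than at 1 day, with a median log2 difference of -5.26 (from -7.90 to -0.49). Krt18 for example had 4.12, 3.63 and 3.34 at 3 days, against 11.29, 8.98 and 7.50 at 1 day, and Clu had 8.19, 8.44 and 9.13 against 18.08, 16.58 and 14.79. All 9 were lower without overlap, as were 12.4 percent of all genes. Upk3b was at background at both times.

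With an addition, all 9 were higher at 3 days than at 1 day. Epcam and Upk3b were at background at both times with Ito cells. The median log2 difference was 3.15 with HGF (from 1.38 to 4.70), 3.59 with Ito cells (from 1.82 to 4.22) and 3.47 with CD146 cells (from 1.20 to 6.34). No gene overlapped between the 2 times, which also held, in the same direction, for 30.3, 53.3 and 35.0 percent of all genes with HGF, Ito cells and CD146 cells. The median of all genes moved by 0.30, 0.51 and 0.16 in these comparisons. Krt7 had the largest difference with CD146 cells, where it had 13.86, 13.35 and 13.10 at 3 days, against 7.18, 7.22 and 6.89 at 1 day.

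Tests were made at 1 day and in monocytic cells, where no 3 day Kupffer array enters. The rise may have been read against 1 day Kupffer or monocytic arrays. In that case those arrays took part in the choice too, and these tests are not free of it. At 1 day the genes other than Epcam and Upk3b were already above background in Kupffer cells kept in MCSF, with a wide spread. Epcam passed the negative controls on 1 of 3 arrays there, and Upk3b was at background. Krt7 had 11.22, 9.97 and 7.71 in these Kupffer cells, against 3.97, 4.18 and 4.21 in monocytic cells. Clu had 18.08, 16.58 and 14.79, against 4.26, 4.24 and 5.34. Replicate 1 was the highest and replicate 3 the lowest of the Kupffer arrays for 8 of the 9 genes, and none of those 8 overlapped the monocytic arrays.

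In MCSF at 1 day 8 of 9 genes were higher in Kupffer cells than in monocytic cells, beside 9.73 percent of all genes. The differences of the 8 ran from 2.43 ± 0.28 for Epcam to 11.87 ± 0.51 for Clu (limma SE, n = 3 each), with adjusted p up to 2.23e-08. Because the monocytic group was at background for all 9, the folds are bounds: at least 1640-fold for Clu, 27.5-fold for Lmo7, 14.2-fold for Krt7, 10.9-fold for Krt18, 9.68-fold for Cdh1, 6.75-fold for Krt8 and 6.27-fold for Krt19. For Epcam no fold can be given, since only 1 of its 3 Kupffer arrays passed the negative controls. Upk3b was at background in both cell types and differed by 0.12 ± 0.28 (limma adjusted p = 0.801). The count was 8 in every fit that left out 1 array. With the spread taken from the compared arrays alone it was also 8, with limma adjusted p of at least 0.00171. That Krt7, Krt19 and Clu differ here was known when the genes were chosen.

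With HGF for 1 day, 9 of 9 genes were higher in Kupffer than in monocytic cells, in a comparison where 39.7 percent of all genes were higher and the median of all genes lay at 0.40. Krt8 had 8.35, 10.26 and 9.28 in Kupffer cells, against 3.23, 2.66 and 2.71 in monocytic cells, a difference of 6.43 ± 0.48 (limma adjusted p = 1.74e-13) and at least 16.5-fold. Krt19 had 7.90, 8.19 and 9.19, against 2.48, 2.59 and 2.56, a difference of 5.89 ± 0.47 (limma adjusted p = 1.26e-12). With the spread taken from the compared arrays alone 9 of 9 genes passed, with limma adjusted p of at least 8.05e-05. Epcam (2.19 ± 0.28) and Upk3b (1.97 ± 0.28) passed the test while at background in both cell types.

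With CD146 cells for 1 day, 8 of 9 genes were higher in Kupffer cells, beside 6.28 percent of all genes. Lmo7 had 7.53, 8.79 and 8.16 in Kupffer cells, against 4.02, 3.90 and 3.80 in monocytic cells, at least 4.76-fold. Clu had 13.64, 13.45 and 13.26, against 5.11, 5.05 and 5.32, at least 186-fold. The other differences that passed ran from 1.16 ± 0.28 for Epcam, at background in both, to 3.23 ± 0.50 for Krt7, with adjusted p up to 0.00459. Upk3b had a difference of 0.61 ± 0.28 (limma adjusted p = 0.133) and was at background in both.

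With Ito cells for 1 day, 4 of 9 genes were higher in Kupffer cells, beside 2.23 percent of all genes. These were Clu (6.94 ± 0.51), Krt7 (2.15 ± 0.50), Lmo7 (1.99 ± 0.50) and Krt8 (1.81 ± 0.48), with adjusted p up to 0.0234. Clu had 12.23, 11.98 and 12.48 in Kupffer cells, against 5.17, 5.52 and 5.18 in monocytic cells. Cdh1 had 6.76, 7.25 and 6.56, against 6.07, 5.41 and 5.75, which did not overlap and did not pass (1.12 ± 0.44, limma adjusted p = 0.231). Krt18, Krt19, Epcam and Upk3b were at background in both cell types. The count was 2 without monocytic Ito replicate 2 or 3, and likewise without Kupffer Ito replicate 2 or 3, and was 7 when the spread was taken from the compared arrays alone.

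**Figure D2:**
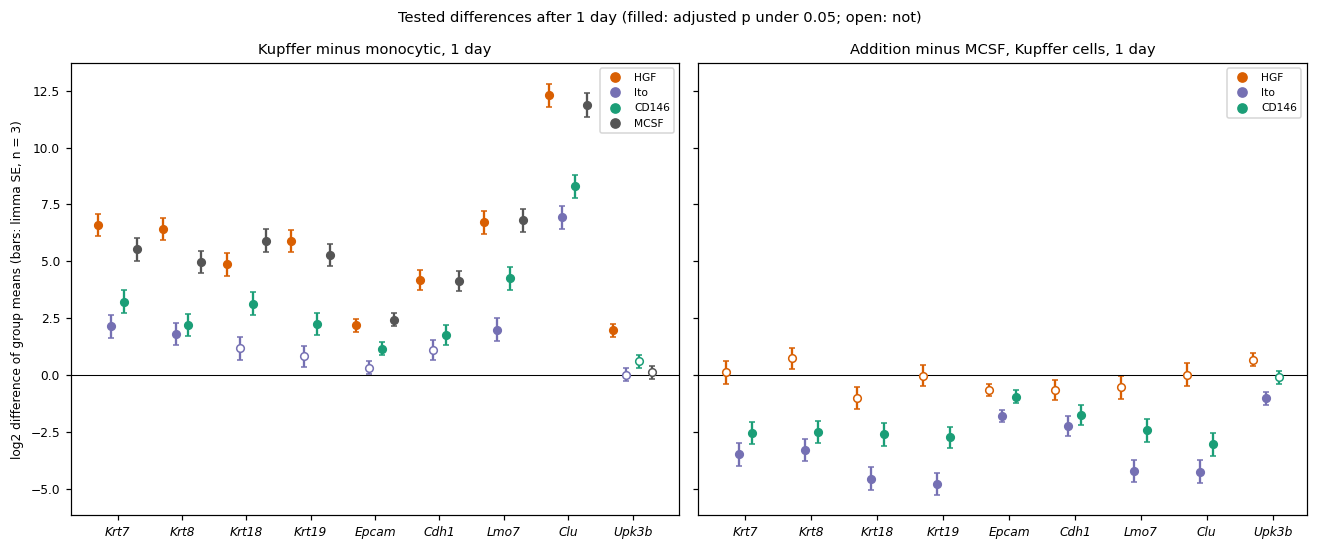
Log2 differences of group means after 1 day with limma SE (n = 3 per group), for Kupffer minus monocytic cells (left) and for each addition minus MCSF in Kupffer cells (right). Filled points have an adjusted p under 0.05; in the left panel Clu reaches 12.30 with HGF, and in the right panel the Ito and CD146 points lie below 0 while the HGF points lie between -1.01 and 0.73.

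The second question at 1 day is how Kupffer cultures with each addition differed from their MCSF control. Since added cells may have been left in, their RNA and a change in the Kupffer cells cannot be told apart. Kupffer cells with Ito cells had lower levels of all 9 genes than those with MCSF. Krt19 had 4.05, 3.37 and 3.60 with Ito cells, against 10.19, 8.53 and 6.65 with MCSF, at background with Ito cells and at least 9.7-fold lower there. Krt18 had 4.53, 4.45 and 5.10, against 11.29, 8.98 and 7.50, at least 16.9-fold lower. No gene overlapped between the groups, although the MCSF arrays were spread widely, with an SD of 1.91 for Krt18 and 1.77 for Krt19.

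All 9 passed the test as lower with Ito cells, where 18.0 percent of all genes were lower and the median of all genes lay at -0.24. The differences ran from -1.02 ± 0.28 for Upk3b to -4.78 ± 0.47 for Krt19, with adjusted p up to 0.00644. Clu was lower by 4.25 ± 0.51 and Lmo7 by 4.22 ± 0.50 on the log2 scale (limma adjusted p = 6.13e-08 and 5.11e-08). With the spread taken from the compared arrays alone all 9 passed, with limma adjusted p of at least 0.0173. Upk3b, at background in both groups, lost its call when each array was centred on its median (-0.58, limma adjusted p = 0.104).

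Kupffer cells with CD146 cells were lower than the MCSF control in 8 of 9 genes, beside 2.46 percent of all genes. Clu had 13.64, 13.45 and 13.26 with CD146 cells, against 18.08, 16.58 and 14.79 with MCSF, a difference of -3.04 ± 0.51 (limma adjusted p = 0.000114). Krt19 had 5.68, 5.65 and 5.81, against 10.19, 8.53 and 6.65 (-2.74 ± 0.47, limma adjusted p = 0.000154). In 6 of the 9 genes the groups did not overlap; Cdh1, Epcam and Upk3b overlapped. Upk3b did not pass (-0.09 ± 0.28, limma adjusted p = 0.962).

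The CD146 comparison leans on the spread shared by all arrays. When it was taken from the 2 compared groups alone, 0 of the 9 genes passed in limma, with adjusted p of at least 0.178, while 7 had an unadjusted p under 0.05. The count was 6 without Kupffer MCSF replicate 1 or 2, where Epcam and Cdh1 lost their calls, 6 without the 3 arrays set apart, and 7 without any 1 of the CD146 arrays. With the replicate number as a block, Epcam had an adjusted p of 0.0529.

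Between Kupffer cells with HGF and with MCSF for 1 day, 0 of the 9 genes passed in limma and 3 had an unadjusted p under 0.05, with 4.13 percent of all genes higher, 13.4 percent lower and a median of all genes at -0.17. Krt7 had 8.35, 10.41 and 10.49 with HGF, against 11.22, 9.97 and 7.71 with MCSF. The smallest adjusted p was 0.0849, for Upk3b (0.67 ± 0.28), and the differences lay between -1.01 ± 0.50 for Krt18 and 0.73 ± 0.48 for Krt8. Single arrays moved this count: without Kupffer MCSF replicate 1 Krt8 was higher (1.64, limma adjusted p = 0.00737), and without replicate 3 Krt18, Epcam and Cdh1 were lower (limma adjusted p = 0.0075, 0.0103 and 0.0353). Without Kupffer HGF replicate 1 Upk3b was higher (limma adjusted p = 0.0359), and without replicate 3 Krt18 was lower (limma adjusted p = 0.0247). The 3 additions share the MCSF arrays of 1 day.

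Whether the difference from MCSF, called the response, was unlike in cultures of the 2 cell types was tested at 1 day. The test took the Kupffer response minus the monocytic response. With Ito cells the response was lower in Kupffer cells for 8 of 9 genes, beside 1.90 percent of all genes, and the differences of responses of the 8 ran from -2.10 ± 0.40 for Epcam to -4.93 ± 0.73 for Clu (limma adjusted p up to 0.00391). With the compared arrays alone the count was 6, and Krt7 and Krt8 lost their calls (limma adjusted p = 0.0647 and 0.0784). With CD146 cells it was lower for 5 genes, Krt8, Krt18, Krt19, Cdh1 and Clu, beside 0.713 percent of all genes. That count ranged from 2 to 8 when single arrays were left out: it was 8 without Kupffer MCSF replicate 3 and 2 or 3 without any other 1 of the 12 arrays. It was 3 after quantile normalization and after median centring. Without the 3 arrays set apart it was 4, and Cdh1 lost its call (-1.98, limma adjusted p = 0.0893). With the compared arrays alone 0 of the 9 genes passed in limma, with adjusted p of at least 0.119, while 8 had an unadjusted p under 0.05. With HGF the response was higher for 1 gene, Upk3b (1.85 ± 0.39, limma adjusted p = 0.00087), beside 20.9 percent of all genes and a median of all genes at 0.36. It was higher for 3 genes, with Krt7 and Krt8, without Kupffer MCSF replicate 1 or Kupffer HGF replicate 1. Krt18 joined Upk3b, with a lower response, without Kupffer MCSF replicate 3 (limma adjusted p = 0.0286). Without the 3 arrays set apart the HGF count was 2, with Krt8 (limma adjusted p = 0.0142). Monocytic levels were at or near background in these tests, so that the monocytic responses within them were not measured above the controls.

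In monocytic cells 8 of the 9 genes stayed at or near background at both times, Clu did so at 1 day only, and few passed a test. At 1 day Upk3b was lower than in the MCSF control with HGF (-1.18 ± 0.28, limma adjusted p = 0.00129) and with Ito cells (-0.92 ± 0.28, limma adjusted p = 0.0206), as 1 of 9 genes each, beside 37.2 and 13.6 percent of all genes. Upk3b was at background in all 3 groups, the median of all genes lay at -0.55 and -0.28 in these comparisons, and both calls were lost after centring each array on its median. The Ito call was also lost without monocytic MCSF replicate 1 or 3 or monocytic Ito replicate 1 or 3. With CD146 cells 0 of 9 genes passed in either direction at 1 day, where 1.00 percent of all genes were higher and 1.33 percent lower by limma; 1 of the 9 had an unadjusted p under 0.05.

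At 3 days Clu was above background in every monocytic group. It had 7.19, 7.18 and 6.46 with HGF and 7.21, 7.08 and 6.98 with Ito cells, against 9.22, 9.85 and 7.66 with MCSF. Clu was lower with HGF (-1.96 ± 0.51, limma adjusted p = 0.0071) and with Ito cells (-1.82 ± 0.51, limma adjusted p = 0.0127), and Upk3b was lower with HGF while at background. These are 2 of 9 and 1 of 9 genes, beside 5.46 and 6.66 percent of all genes. Without monocytic MCSF replicate 1 or replicate 2, 0 of these 3 calls held. Without the 3 arrays set apart Upk3b also passed as lower with Ito cells (-0.81, limma adjusted p = 0.0422). With CD146 cells Clu had 9.38, 10.17 and 9.82, and 0 of 9 genes passed in limma while 4 had an unadjusted p under 0.05, with 1.22 percent of all genes higher and 1.18 percent lower. Over time in MCSF, Clu was the 1 gene of 9 that was higher at 3 days than at 1 day (4.29 ± 0.51, limma adjusted p = 1.29e-08), at least 8.59-fold, beside 19.5 percent of all genes and a median of all genes at 0.13. Epcam passed as well when monocytic MCSF replicate 1 of 3 days was left out (0.93, limma adjusted p = 0.0195).

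Monocytic cells with Ito cells had Cdh1 slightly over the negative controls at 1 day, with 6.07, 5.41 and 5.75, against 5.01, 4.70 and 5.16 with MCSF, where it was at background. The difference of 0.78 ± 0.44 did not pass (limma adjusted p = 0.221). Lmo7 had 3.96, 5.13 and 5.48 with CD146 cells at 3 days, against 3.01, 3.44 and 3.72 with MCSF, at background in both (1.46 ± 0.50, limma adjusted p = 0.128), and passed only without the 3 arrays set apart (1.63, limma adjusted p = 0.0303).

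The order of the 16 group means was much alike from gene to gene. Krt7, Krt8, Krt19, Epcam, Cdh1, Lmo7 and Clu had their highest means in 3 day Kupffer cells with HGF, followed by CD146 cells. The arrays of those 2 groups overlapped for Krt7 (means 14.45 ± 0.53 and 13.43 ± 0.39) and Lmo7 (13.44 ± 1.26 and 11.75 ± 0.40) and not for the other 5. In Krt18 the mean of Kupffer MCSF at 1 day (9.26 ± 1.91) came second, within the range of the CD146 group at 3 days (9.14 ± 0.14).

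Correlations over the 16 group means describe the same likeness. The 28 pairs among the 8 genes without Upk3b had r from 0.89 to 0.99, and the 8 pairs with Upk3b had r from 0.69 to 0.85. Over the 12 groups without 3 day Kupffer arrays they were 0.84 to 0.98 and 0.53 to 0.73. The points share arrays and normalization.

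The name of bile duct genes was set against a list of cholangiocyte markers. Of 18 listed genes 14 were measured and the other 4 were not analysed here. Of the 14, 11 are not among the 9 genes. In 3 day Kupffer cells with HGF, Ito or CD146 cells, 3 of the 11 had means above the negative controls, against 2 with MCSF. The 3 are Cldn4, a claudin of tight junctions, Bicc1, an RNA-binding protein, and Anxa4, an annexin that was high in every group. Bicc1 also averaged 6.18 ± 0.77 in monocytic cells with MCSF for 3 days, where 2 of 3 arrays passed the negative controls. Cldn4 averaged 8.66 ± 0.68 with HGF, 6.43 ± 0.21 with Ito cells and 7.11 ± 0.26 with CD146 cells, against 4.02 ± 0.32 with MCSF.

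Krt7, Krt19 and Epcam, which stand on the cholangiocyte list as well as among the 9 genes, averaged 14.45, 10.25 and 7.47 with HGF. Several other genes of the list were at or near background. Sox9, a transcription factor of biliary cells, averaged 5.39 ± 0.36 with HGF, where 2 of 3 arrays passed the negative controls, 5.22 ± 0.28 with Ito cells and 5.29 ± 0.08 with CD146 cells, against 4.32 ± 0.24 with MCSF. Cftr, the chloride channel, Pkhd1, a protein of the cilium, Sctr, the secretin receptor, and Onecut1, a transcription factor, were at background in all 4 groups of 3 days. Aqp1, the water channel of bile ducts and of endothelium, was at background there too, and averaged 8.95 in Kupffer MCSF cells at 1 day.

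A mesothelial list, which shares Krt8, Krt18, Krt19 and Upk3b with the 9 genes, had 12 further genes measured. With CD146 cells for 3 days 8 of the 12 had means above the negative controls, with HGF 6 and with Ito cells 3, against 1 with MCSF. Gpm6a, a membrane glycoprotein, averaged 7.22 ± 0.32 with HGF, 6.57 ± 0.20 with Ito cells and 9.45 ± 0.25 with CD146 cells, against 5.57 ± 0.17 with MCSF. Upk1b, another uroplakin, had 7.03 to 8.09 with HGF, 4.58 to 5.77 with Ito cells and 7.86 to 8.24 with CD146 cells, against 2.97 to 3.90 with MCSF. Msln, the surface protein mesothelin, averaged 7.95 ± 0.31, 4.69 ± 0.39 and 6.57 ± 0.45, against 3.68 ± 0.06. Wt1, the transcription factor of mesothelium, was at background in all 4 groups. Over the 16 group means the mean of the 9 genes correlated by 0.92 with the 11 further cholangiocyte genes and by 0.90 with the 12 further mesothelial genes. With a list of epithelial junction genes it correlated by 0.91. The points share arrays and normalization, and they include the 3 day Kupffer groups whose values chose the 9. With HGF against MCSF at 3 days, 10 of the 11 cholangiocyte genes had a positive difference (median 1.04), as did 11 of the 12 mesothelial genes (median 0.79). The median of all genes lay at -0.00. At background in both groups were 5 of the 11 and 6 of the 12, so part of these signs was read under the negative controls. As a description only, genes of both lists varied with the 9 over groups that include those used to choose them, while others of both were at background. The 9 are therefore given no cell type name and are described only as keratin, adhesion and related epithelial genes.

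**Figure D3:**
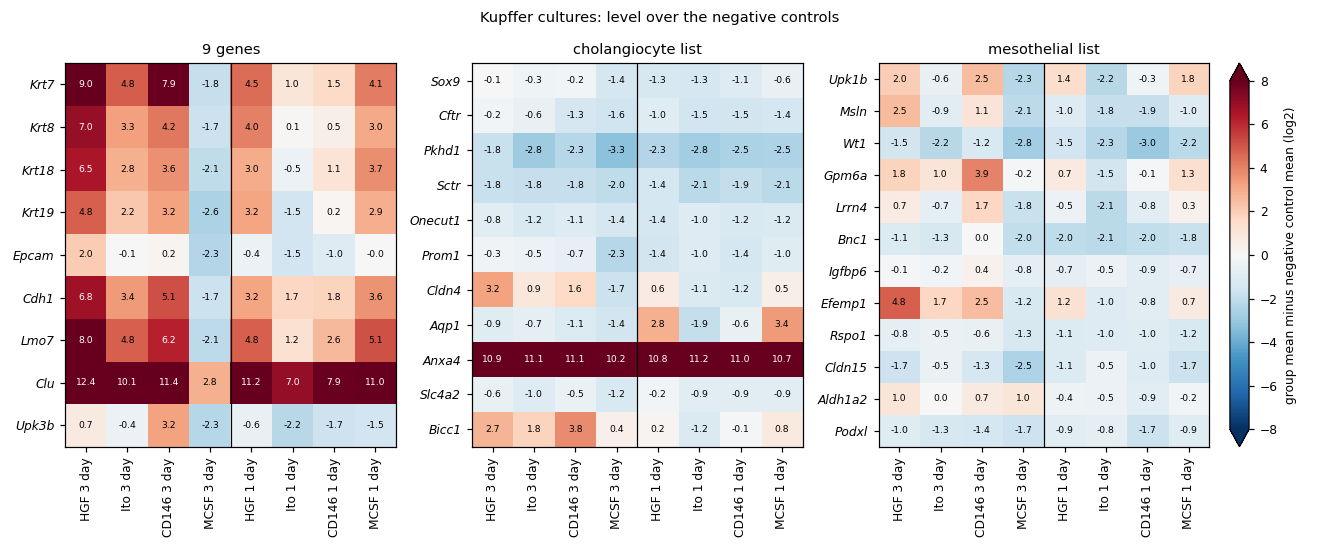
Group mean minus negative control mean (log2, 3 arrays per group; colour stops at 8 units) in the 8 Kupffer groups for the 9 genes, the cholangiocyte list and the mesothelial list without them. Red cells lie above the controls: Cldn4, Bicc1, Upk1b, Gpm6a and Efemp1 are red with HGF and CD146 cells at 3 days, while Pkhd1, Sctr and Wt1 are blue throughout.

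At 1 day, where the lists could be tested, genes of each epithelial list changed with the 9 genes. In Kupffer MCSF cells against monocytic MCSF cells, where 9.73 percent of all genes were higher, 5 of the 11 cholangiocyte genes were higher and 0 lower, with Sox9 (1.47 ± 0.26), Cldn4 (2.55 ± 0.42), Aqp1 (5.04 ± 0.52) and Bicc1 (2.64 ± 0.40) among them. The mesothelial list had 5 of 12 higher and 0 lower, with Upk1b (3.89 ± 0.36), Gpm6a (1.80 ± 0.28), Efemp1 (2.25 ± 0.38) and Lrrn4 (2.08 ± 0.42). The list medians were 0.53 and 0.51, against -0.07 over all genes. At background in both groups were 5 of the 11 and 7 of the 12 genes. The genes named were at background in monocytic cells, so part of each difference was read under the negative controls.

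A list of 28 measured genes of epithelial junctions and their regulators, none of them among the 9, had 10 higher and 2 lower in the same comparison, with a median of 0.55. Dsg2, a desmosomal cadherin, was higher by 2.97 ± 0.38, F11r, a tight junction adhesion molecule, by 3.03 ± 0.41, Spint2, a protease inhibitor, by 2.02 ± 0.30 and Dsp, the desmosomal plaque protein, by 1.64 ± 0.32. These named genes were at background in monocytic cells, and 13 of the 28 were at background in both groups. With Ito cells against MCSF in Kupffer cells 13 of the 28 were lower, beside 18.0 percent of all genes, and 1 was higher, with a median of -0.80 beside -0.24 over all genes. Dsg2 was lower by 2.62 ± 0.38, Spint2 by 2.04 ± 0.30 and Dsp by 1.61 ± 0.32 on the log2 scale. Of the 28, 12 were at background in both of these groups. Spint1 was the one that was higher (4.11 ± 0.84). With CD146 cells 5 of the 28 were lower, beside 2.46 percent of all genes, and 0 higher. With HGF 2 of the 28 were lower, beside 13.4 percent of all genes, and 1, Cldn7, was higher, beside 4.13 percent.

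Endothelial and hepatocyte genes changed in the same tests at 1 day. In Kupffer MCSF cells against monocytic MCSF cells, 9.73 percent of all genes were higher. Of 11 sinusoidal endothelial genes 10 were higher, with a median of 3.77, and 1, Fcgr2b, was lower. Cdh5, the cadherin of endothelial junctions, was higher by 9.44 ± 0.55. Of 11 hepatocyte genes 8 were higher and 0 lower, with a median of 2.25, and Ambp, which encodes a plasma protein made by liver, was higher by 3.28 ± 0.30. At background in both groups were 1 endothelial and 3 hepatocyte genes. With Ito cells against MCSF in Kupffer cells, 18.0 percent of all genes were lower and the median of all genes lay at -0.24. There 10 of the 11 endothelial genes were lower, with a median of -2.71, and Fcgr2b was higher. Of the 11 hepatocyte genes 8 were lower and 0 higher, with a median of -1.14. With CD146 cells against MCSF 9 of the 11 endothelial genes were lower, with a median of -2.30, beside 2.46 percent of all genes. Of the hepatocyte genes 1, Ambp, was lower. The part of these cell types in the differences of the 9 genes was not tested.

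By likeness of pattern, the 10 genes closest to the mean of the 9, among 10584 other genes with a group mean above the negative controls, were Mal2, Apob, Muc1, Ano1, Klf5, Ptprk, Aldh1a1, Tspan8, Cldn4 and Gprc5a, with Pearson's r from 0.989 to 0.961 over the 16 group means. All 10 had their highest mean in 3 day Kupffer cells with HGF. The mean of the 9 was highest there too, so this follows largely from choosing the 10 by likeness. Muc1, a membrane mucin of epithelia, reached 10.41 in that group. Apob, an apolipoprotein gene of hepatocytes and gut epithelium, reached 11.37 and Mal2, a protein of apical transport, 9.22. By Spearman's rho 5 of the 10 were again among the closest 10.

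Markers of other liver cells varied over the same groups. The mean over 11 measured hepatocyte genes lay between 5.74 and 6.62 on the HGF arrays of 3 day Kupffer cells, 5.51 and 5.88 with Ito cells and 4.49 and 4.71 with CD146 cells, against 3.52 and 3.79 with MCSF, where 11 of 11 were at background. Alb, which encodes serum albumin, averaged 12.97 ± 1.10, 12.77 ± 0.47 and 8.63 ± 0.46 with HGF, Ito and CD146 cells, against 4.58 ± 0.47 with MCSF. Hnf4a, Cps1 and Tat, genes of hepatocyte identity and metabolism, were at background in all 4 groups. The part of hepatocyte RNA in the levels of Krt8 and Krt18 was not tested.

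The 11 measured sinusoidal endothelial genes had array means from 6.78 to 7.42 with HGF, 6.03 to 6.29 with Ito cells and 5.75 to 5.79 with CD146 cells at 3 days, against 5.19 to 5.30 with MCSF, and from 8.31 to 10.49 in Kupffer MCSF cells at 1 day. The 8 macrophage genes ran the other way: their array means lay from 14.22 to 14.64 with HGF, 14.50 to 14.80 with Ito cells and 14.36 to 14.42 with CD146 cells, against 16.44 to 16.76 with MCSF. Gene by gene, the median log2 difference of the 8 from MCSF was -1.37 with HGF, -0.86 with Ito cells and -0.96 with CD146 cells. A positive difference was seen in 0, 1 and 1 of them. C1qa, a complement gene of tissue macrophages, differed far more than these medians. It averaged 9.76 ± 0.48, 9.39 ± 0.24 and 7.09 ± 0.29 with HGF, Ito and CD146 cells, against 16.71 ± 0.32 with MCSF. The MCSF control itself differed between the times. At 3 days against 1 day the median of the 8 macrophage genes was 1.70 with MCSF, with 8 positive. With HGF, Ito and CD146 cells it was -0.29, -0.54 and -0.09, with 3, 3 and 4 positive. Clec4f, a marker of mouse Kupffer cells, was at background in every group. Other genes of the Kupffer cell list were not. Of its 6 genes, 5 had means above the negative controls in 3 day Kupffer cells with HGF, Ito cells or MCSF. With CD146 cells 4 did, and in monocytic cells with MCSF for 3 days 5 did.

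In Kupffer MCSF cells at 1 day the hepatocyte and endothelial lists had the same order of arrays as the 9 genes. Replicates 1, 2 and 3 had means over the 9 genes of 10.42, 9.08 and 7.67. The hepatocyte list had 7.57, 6.61 and 5.73 on those arrays and the sinusoidal endothelial list 10.49, 9.20 and 8.31. The macrophage list had 13.79, 15.80 and 15.73, low on replicate 1 and alike on the other 2. The mean of the 9 genes over the 16 groups correlated by 0.82 with the hepatocyte list, 0.66 with the endothelial list, 0.58 with the Ito cell list, 0.27 with the Kupffer cell list and -0.95 with the macrophage list. Those 16 groups again include the ones that chose the 9.

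**Figure D4:**
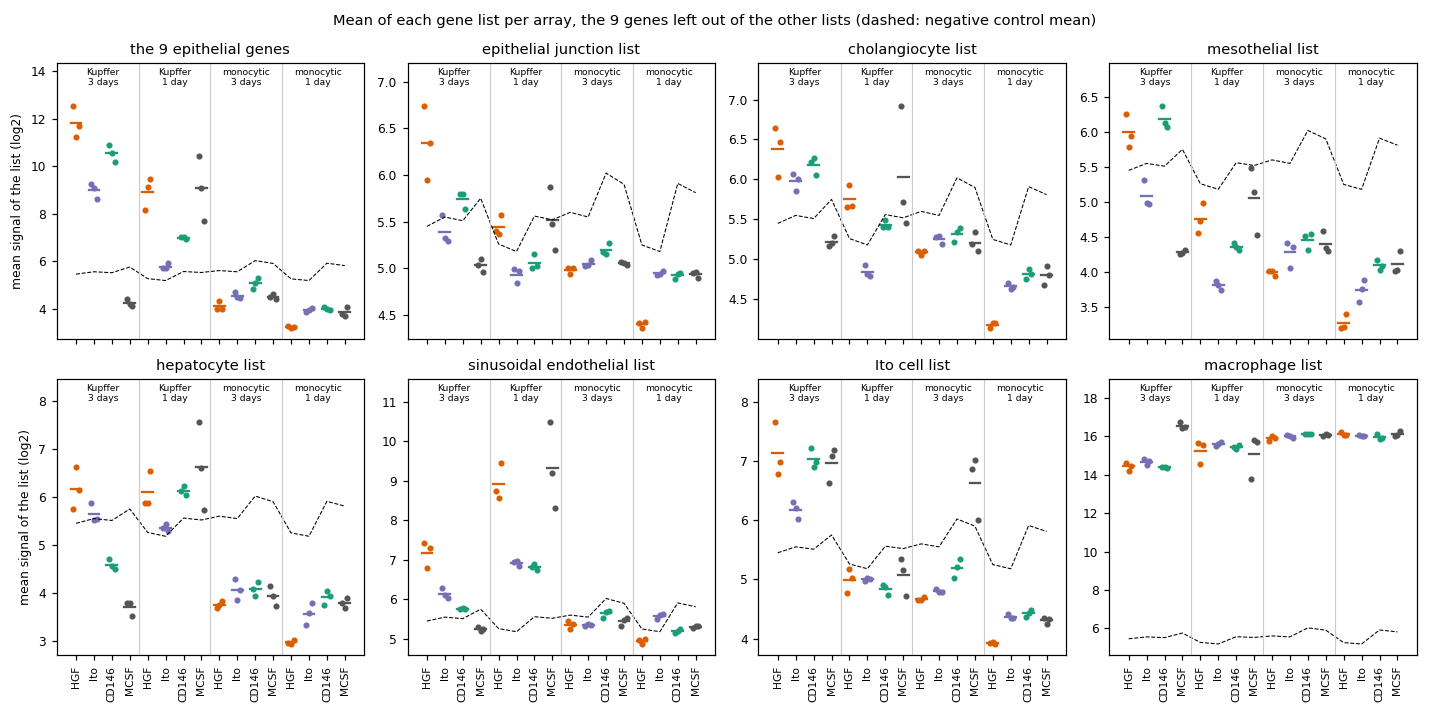
Mean log2 signal per array of the 9 genes and of 7 further gene lists from which the 9 were left out, by culture; points are arrays, bars are means of 3, and the dashed line is the negative control mean (the vertical scales differ). In 3 day Kupffer cells the epithelial, hepatocyte and endothelial panels are higher with HGF than with MCSF, and the macrophage panel is lower, between 14.22 and 14.64 with HGF and between 16.44 and 16.76 with MCSF.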

How the data were processed

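RNA of 48 cultures, 16 groups of 3, was measured on Affymetrix arrays. Cells were lysed in QIAZOL and biotin-labelled cRNA was hybridised, per the labels' protocols. The deposited values are log2 signals that the authors made by RMA, with the Transcriptome Analysis Console, per the submitters' processing notes. Their versions are not given in the sources used here. How far this processing altered differences near background, and in which direction, was not tested. Values ran from 0.88 to 19.93.

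Of 28846 probe sets, 6640 were controls, among them 5222 negative controls, and 19572 were annotated to 1 gene symbol and 2634 transcript probe sets to none or several. They gave 19505 genes, of which 55 had several probe sets and were read by the one with the highest mean.

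One mean per group was fitted over all 48 arrays with limma 3.58.1 in R 4.3.3 (lmFit, eBayes, two-sided), with Benjamini-Hochberg adjustment over 19505 genes within a comparison and a threshold of 0.05. In these tests 14 comparisons of groups and 3 of responses were made, and 11 with 3 day Kupffer arrays were described only. The pooled spread gives Kupffer cells in MCSF at 1 day an SE that is small beside the spread of their own arrays. Titles call the replicates biological, and nothing states separate animals, so p-values measure the spread between these samples. The genes and lists were chosen with earlier results of these data known. Named genes are the 9, up to 4 of a list with the smallest adjusted p in a comparison described, defining markers at background, and the 10 genes most alike over the group means; single genes that ran against the rest of a list were named after their values were seen. Replicate numbers did not pair the arrays: deviations correlated by -0.0103 on average between equal numbers, and 1 of 120 pairs of groups had all its correlations over 0.1. Alternatives were quantile normalization, median centring, eBayes with trend and robust settings, a filter that drops the 25 percent of genes with the lowest mean, the replicate number as a block, the compared arrays alone, and arrays left out.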

Additional observations from a re-analysis of the deposited data

Results flagged for a closer look

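Tests of the difference between the Kupffer and the monocytic response at 1 day singled out 14 values, each a log2 difference of responses. With Ito cells it was -3.37 for Krt7, -3.15 for Krt8, -4.73 for Krt18, -4.46 for Krt19, -2.10 for Epcam, -3.00 for Cdh1, -4.81 for Lmo7 and -4.93 for Clu. With CD146 cells it was -2.78 for Krt8, -2.75 for Krt18, -3.03 for Krt19, -2.37 for Cdh1 and -3.58 for Clu. When the compared arrays alone set the spread, 0 of these 5 CD146 values passed (limma adjusted p of at least 0.119), and Krt7 and Krt8 did not pass with Ito cells. With HGF it was 1.85 for Upk3b, which was at background in all 4 groups of that test. All 14 share the MCSF arrays of 1 day.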

How the results depend on the processing

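Of 2106 recomputed single values with a test, 1990 kept direction and side of the threshold, 86 lost their call, 30 gained one and 0 reversed. Of 792 untested differences 24 moved by over 1 SD and 3 differed in sign. All 9 genes passed the filter on dim genes. In counts of the 9 genes, quantile normalization gave 1 for Kupffer HGF against MCSF at 1 day, 0 for monocytic HGF and 0 for monocytic Ito at 1 day, 2 for monocytic Ito at 3 days and 3 for the CD146 response, and a median of 3.11 for Kupffer Ito at 3 days against 1 day. Median centring gave 1, 0 and 0 for the first 3 of these, 3 for the CD146 response and a median of 2.94. The compared arrays alone gave 7 for Kupffer against monocytic cells with Ito cells at 1 day, 0 for Kupffer CD146 against MCSF (7 at an unadjusted p under 0.05 in limma), 5 for monocytic HGF and 2 for monocytic Ito at 1 day, 0 for monocytic Ito at 3 days (5 unadjusted) and 0 for the CD146 response (8 unadjusted). Without the 3 arrays set apart the count was 2 for monocytic Ito and 1 for monocytic CD146 at 3 days and 2 for the HGF response. With the replicate block the 1 call lost was Epcam in Kupffer CD146 against MCSF at 1 day (-0.95, limma adjusted p = 0.0529).

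Leaving out 1 array at a time, the count ranged from 0 to 3 for Kupffer HGF against MCSF, 1 to 3 for the HGF response, 2 to 8 for the CD146 response, 2 to 4 for Kupffer against monocytic cells with Ito cells, 0 to 1 for monocytic Ito at 1 day and at 3 days, 0 to 2 for monocytic HGF at 3 days and 1 to 2 for monocytic MCSF at 3 days against 1 day. The causes were not tested. Over all genes, quantile normalization left 5204 calls of 10491 for Kupffer against monocytic cells with HGF at 1 day and 435 of 7307 for monocytic HGF against MCSF. Signal near the negative controls limits Epcam, Upk3b and all monocytic values but those of Clu at 3 days.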
